A study of Rattus norvegicus with 5 samples.

Results

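The interferon response and antigen-processing genes described here are 39 rat genes chosen by symbol, with no measured value in the rule. All 39 symbols were found among the 33014 genes of the combined gene-level table, in all 5 libraries. They fall into 7 role groups. These are the interferon regulatory factors with Stat2, the RNA sensors and RNA-activated enzymes, the ISG15 system, the antiviral effectors, the immunoproteasome subunits, the genes of peptide transport and class I, and the MHC transactivators.

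The libraries came from cultures of dissociated dorsal root ganglia, the clusters of sensory neurons and glia beside the spinal cord. The ganglia were taken from wild-type Sprague Dawley rats of postnatal day 10, from 1 litter of 10 pups, and cells were plated at 5000 per well. PBS, the vehicle, was added to every culture after 1 day, cultures were kept for 8 days in all, and 3 wells were pooled for each RNA sample. All 5 samples form 1 group, with no second condition, no added interferon and no virus named in the labels. The labels do not say whether the samples came from separate cell preparations, so a p-value here speaks of the variation between libraries alone, and that variation may be technical. Levels are given as TPM, a read count divided by transcript length and scaled to the same total in each library, and errors are SD over 5 libraries. In such mixed cultures fewer cells of a type and less RNA per cell cannot be told apart.

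The libraries held between 21596608 and 27913098 estimated reads. All 10 neuronal markers, all 9 Schwann cell and satellite glia markers, all 6 fibroblast markers and all 14 macrophage markers reached 1 TPM in every library. The summed level of the macrophage markers was lowest in replicate 2, and ranged from 1440 to 2268 TPM. Of the markers of other immune cells, 1 of 7 for dendritic cells, 3 of 7 for T and NK cells, 0 of 5 for B cells and 2 of 5 for neutrophils were detected by the same rule. The T cell genes Cd3d and Cd3e were listed at 0 in every library. The 3 detected markers of that list were Cd4, Cd8a and Lck, at means of 36.2, 7.93 and 1.70 TPM. Of 8 endothelial markers 3 were detected.

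Interferons are secreted proteins that cells release when they sense foreign or misplaced nucleic acid. They bind surface receptors whose Janus kinases phosphorylate STAT proteins, and a complex that holds Stat2 and Irf9 then binds the interferon-stimulated response element (ISRE) in target promoters. Interferon gamma acts mainly at the gamma-activated site (GAS). Targets include antiviral effectors and the machinery that cuts proteins into peptides, moves the peptides into the endoplasmic reticulum and loads them on MHC class I molecules. Neurons are known for low MHC class I display at rest, whereas macrophages and glia display it more readily.

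RefSeq promoter windows on the rat build GRCr8 were available for 31 of the 39 genes; those of Irf2, Dhx58, Isg15, Usp18, Mx2, Ifit2, Nlrc5 and Ciita were not used here. Each window runs from 250 bases before to 50 bases after the annotated start of the gene. The ISRE core searched was GAAA, any 2 bases, then GAAA, and the GAS was TTC, any 3 bases, then GAA, each on both strands. The stretches below, from 170 bases before the start to 30 after it, are shown 5′ to 3′ on the strand of the gene because they hold the core in genes of 5 role groups. Capitals mark the ISRE core on either strand. The stretches are Irf7 at chr1:205799994-205800193 (minus strand), Oas1a at chr12:41330296-41330495 (plus strand), Bst2 at chr16:18254938-18255137 (minus strand), Psmb10 at chr19:50743263-50743462 (minus strand), Tap1 at chr20:4668514-4668713 (minus strand) and B2m at chr3:129549160-129549359 (plus strand).
Irf7: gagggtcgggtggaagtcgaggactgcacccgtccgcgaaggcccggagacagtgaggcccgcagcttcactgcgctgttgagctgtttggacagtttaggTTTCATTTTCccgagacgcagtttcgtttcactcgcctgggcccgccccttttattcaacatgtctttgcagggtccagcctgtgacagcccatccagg
Oas1a: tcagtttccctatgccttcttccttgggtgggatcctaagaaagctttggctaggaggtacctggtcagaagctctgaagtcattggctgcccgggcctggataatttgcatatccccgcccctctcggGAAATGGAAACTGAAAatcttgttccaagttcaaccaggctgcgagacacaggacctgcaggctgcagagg
Bst2: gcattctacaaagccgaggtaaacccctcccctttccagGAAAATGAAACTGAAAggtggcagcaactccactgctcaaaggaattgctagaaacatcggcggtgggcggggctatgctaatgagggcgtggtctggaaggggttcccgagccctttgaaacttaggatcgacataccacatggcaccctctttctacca
Psmb10: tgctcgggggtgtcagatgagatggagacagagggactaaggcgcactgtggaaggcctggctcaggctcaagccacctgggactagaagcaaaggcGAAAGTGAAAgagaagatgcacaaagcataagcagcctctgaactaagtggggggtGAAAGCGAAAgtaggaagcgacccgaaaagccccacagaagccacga
Tap1: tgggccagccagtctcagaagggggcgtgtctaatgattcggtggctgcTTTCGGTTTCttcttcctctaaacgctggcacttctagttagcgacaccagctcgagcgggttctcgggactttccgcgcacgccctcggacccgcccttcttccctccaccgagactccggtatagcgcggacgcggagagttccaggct
B2m: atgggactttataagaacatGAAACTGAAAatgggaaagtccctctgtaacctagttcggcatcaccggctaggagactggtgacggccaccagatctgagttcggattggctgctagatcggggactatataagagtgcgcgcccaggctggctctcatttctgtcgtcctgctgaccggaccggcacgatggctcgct

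The promoter table held 33469 windows for 27457 gene symbols, and only the first listed window of each symbol was used. Other annotated starts of a gene were thus left out, and all windows below means these 27457. The ISRE core was found in 18 of the 31 windows (58.1%), against 1034 of the 27457 windows (3.77%). Of the 10508 windows of detected genes, 2.85% held it. By role it was found in all 4 genes of peptide transport and class I, in 8 of 11 antiviral effectors, in 3 of 5 sensors, in 2 of 3 immunoproteasome subunits and in 1 of 8 windows of the regulatory factors and Stat2, that of Irf7. Windows of Bst2, Ifi44, Oas1a, Psmb10 and Tapbp held 2 matches each, 5 of 31 windows against 0.255% of all. In Oas1a, Bst2 and Tapbp the 2 matches overlap and form 1 longer run, while in Psmb10 they begin 73 and 17 bases before the start. All 23 matches in these genes began within 150 bases of the start, as did 66.0% of the 1109 matches over all windows. The GAS was found in 7 of 31 windows (22.6%), those of Irf1, Irf8, Irf9, Oas1a, Bst2, Parp14 and Psmb8, against 8.68% of all windows. Tap1 and Psmb9 lie head to head, on opposite strands, and their windows share 44 bases. A match is a run of letters in the reference, and binding was not measured.

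**Figure D1:**
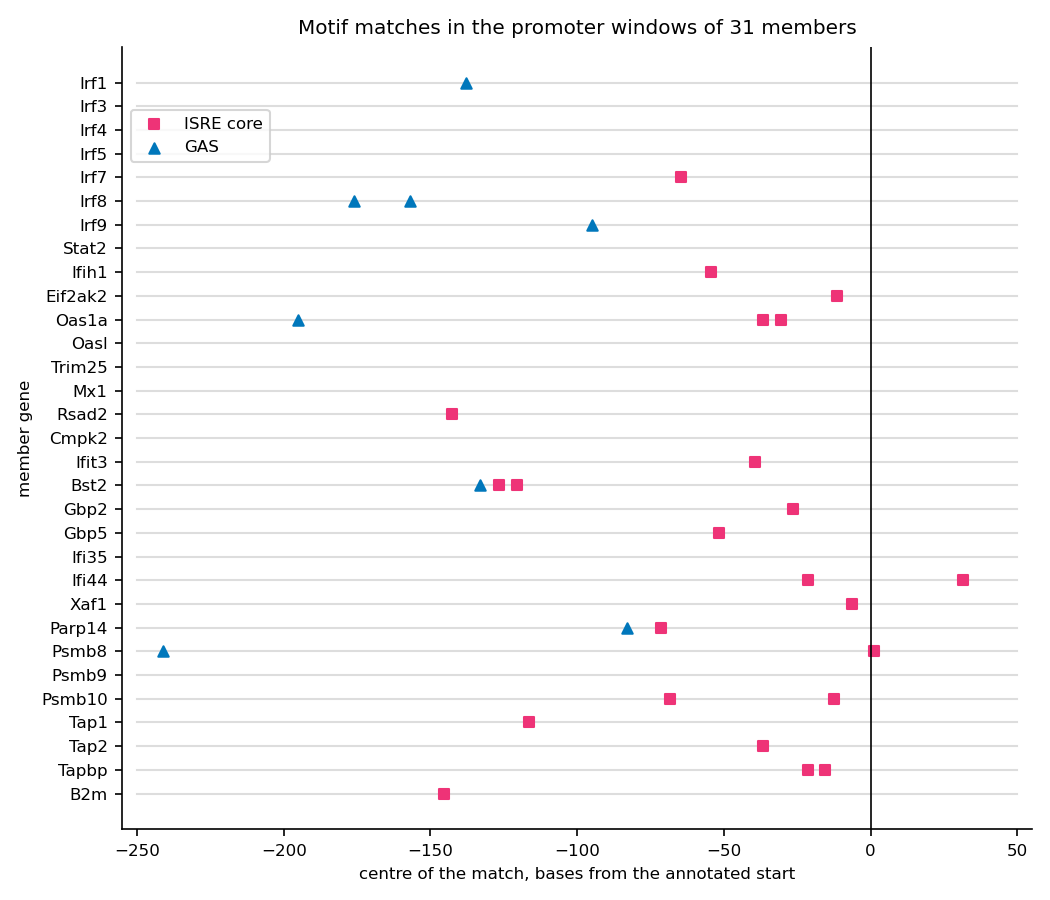
Position of motif matches in the promoter windows of 31 genes. The horizontal axis is the distance in bases from the annotated start to the centre of a match, squares are ISRE cores and triangles are GAS matches on either strand. All 23 ISRE matches begin within 150 bases of the start, and Bst2, Ifi44, Oas1a, Psmb10 and Tapbp have 2 each.

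A gene was called detected when it reached 1 TPM in every library. By this rule 33 of the 39 genes were detected, against 41.3% of the 33014 genes of the table. All 6 sensors, both genes of the ISG15 system, all 3 immunoproteasome subunits and all 4 genes of peptide transport and class I were detected, as were 8 of 9 regulatory factors with Stat2 and 10 of 13 antiviral effectors. Neither MHC transactivator was. The undetected genes were Irf4, Mx1, Rsad2, Ifit3, Nlrc5 and Ciita. The median gene of the set had a mean of 12.5 TPM, and the means ran from 0.03 TPM for Ciita to 777 TPM for B2m.

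**Figure D2:**
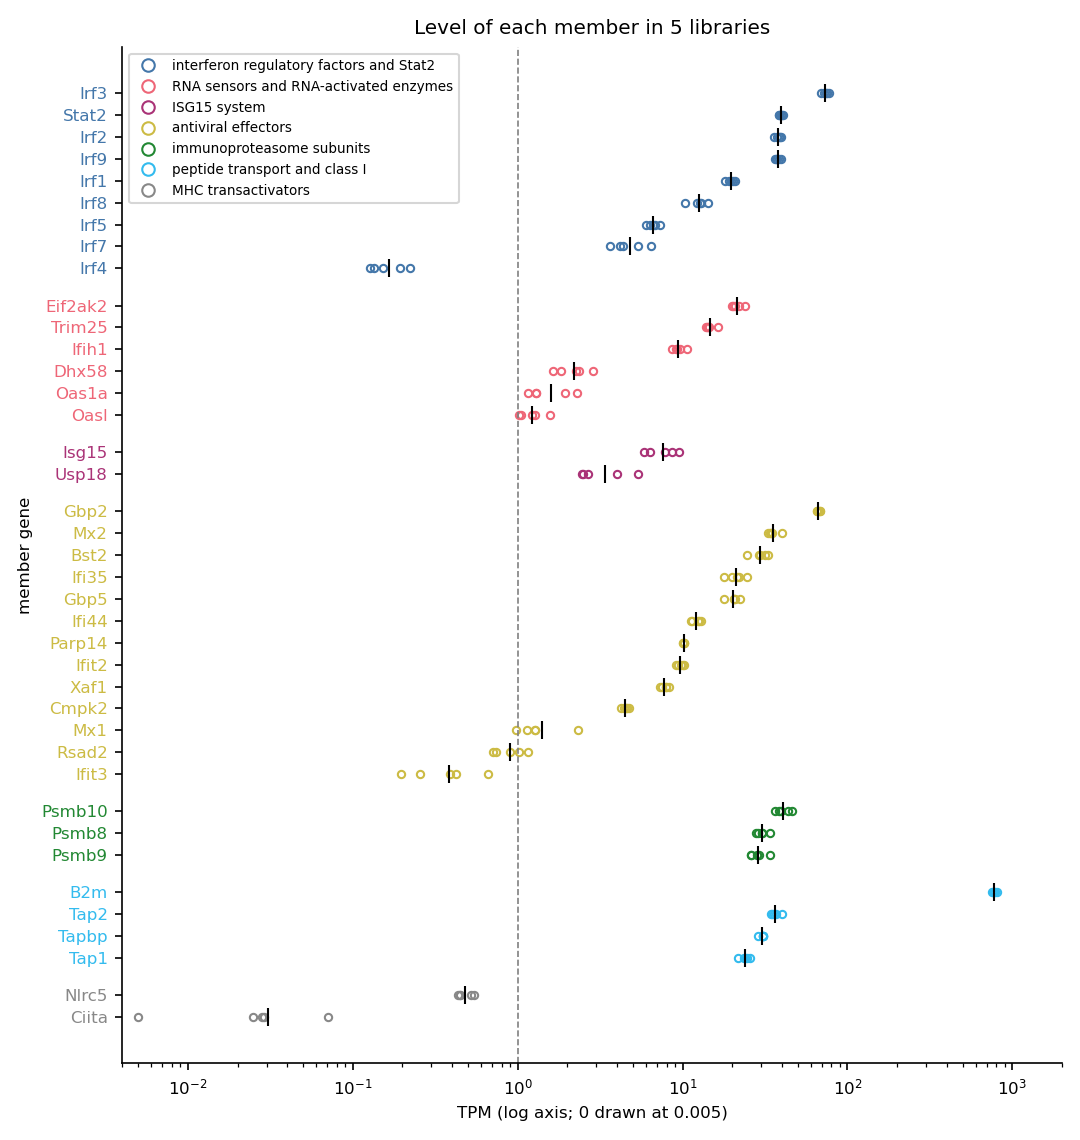
Level of each gene in the 5 libraries. The horizontal axis is TPM on a log scale with 0 drawn at 0.005, open circles are libraries, black bars are means, colours are role groups, and the dashed line is the detection threshold of 1 TPM. B2m stands alone at 756 to 812 TPM, and the circles of Ciita and Irf4 all lie below 1 TPM.

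The order of the levels had few sharp steps. B2m was above every other gene of the set in each library. By deposited TPM, Irf3 and Gbp2 followed with ranges that did not overlap those of their neighbours, but the place of Irf3 does not hold for its named transcripts, which summed to 20.7 TPM. Below them, from Psmb10 at 40.7 ± 3.90 TPM to Mx2 at 35.2 ± 2.77 TPM, 6 genes from 4 role groups (Psmb10, Stat2, Irf2, Irf9, Tap2 and Mx2) had ranges that each overlapped the next. The place of Irf9 also rests on its deposited TPM, since its named transcripts summed to 24.2 TPM. Of the 38 pairs of neighbours in the order, 10 did not overlap. B2m alone made up 52.5% ± 0.466 of the summed TPM of the set.

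Among the interferon regulatory factors, Irf3 was highest, at 75.6, 76.9, 72.5, 68.8 and 73.6 TPM in replicates 1 to 5. Irf3 is the constitutive factor that is activated in the cytosol by RNA and DNA sensing. Beside the low sum of its named transcripts, Irf3 overlaps in the RefSeq table the expressed gene Bcl2l12, so its level is uncertain. Stat2, a subunit of the complex that binds the ISRE, had 40.4, 39.8, 40.2, 38.5 and 38.6 TPM. Irf2, which competes with Irf1 at shared sites, had 39.3, 38.9, 37.4, 35.9 and 38.3 TPM. Both genes stayed within a narrow band, with coefficients of variation of 2.32% for Stat2 and 3.52% for Irf2. Counting error alone would give about 2.31% and 3.03%. Irf9, the DNA-binding partner of Stat2, averaged 37.8 ± 1.40 TPM. Its named transcripts summed to 24.2 TPM, so its level is uncertain.

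Irf1, the activator that opposes Irf2, was at 20.7, 20.2, 19.7, 18.1 and 19.2 TPM. It lay below Irf2 in 5 of 5 libraries, at 0.52 times its level, with a log2 ratio of -0.95 ± 0.04. Ratios here are of TPM plus a pseudocount of 0.1, which understates the ratio for low genes. Irf8, a factor of the macrophage lineage, averaged 12.5 ± 1.42 TPM and was lowest in replicate 2, the library with the lowest macrophage marker sum; the part of those cells in its level was not tested. Its named transcripts summed to 1.05 TPM, so they do not account for its deposited level, which is uncertain. Irf5, also active in macrophages, averaged 6.59 ± 0.47 TPM. Irf4, a factor of lymphocytes and dendritic cells, had 67 reads in all and a level of 0.17 TPM (exact Poisson 95% limits 0.13 and 0.21).

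Irf7, the factor that is itself induced by interferon and amplifies the response, was low and uneven. It had 4.15, 4.32, 6.45, 5.39 and 3.62 TPM in replicates 1 to 5. Replicate 3 was highest and replicate 5 lowest, with a ratio of 1.78 between them. Irf7 lay below Irf3 in every library, with a log2 ratio of -3.94 ± 0.36, or -2.11 when only named transcripts were summed.

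Among the sensors, Eif2ak2 was highest, the kinase PKR that halts translation on binding double-stranded RNA. It had 20.2, 20.7, 23.8, 19.9 and 22.0 TPM, highest in replicate 3. Trim25, a ubiquitin ligase that acts on the RNA sensor RIG-I, had 13.8, 14.4, 16.5, 14.1 and 14.2 TPM. Replicate 3 again stood above the other 4 libraries, which lay close together. Ifih1, which encodes the helicase MDA5, a sensor of long double-stranded RNA, had 9.23, 10.6, 9.61, 9.13 and 8.63 TPM. Here replicate 2 was highest.

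Dhx58, the related helicase LGP2 that tunes these sensors, was lower at 1.83, 1.63, 2.87, 2.25 and 2.34 TPM. Ifih1 exceeded Dhx58 in 5 of 5 libraries, 4.24-fold on average, with folds between 3.27 and 6.19. Oas1a, an enzyme that makes 2-5A to activate RNase L, had 1.30, 1.16, 2.30, 1.30 and 1.93 TPM, and replicate 3 was at 1.99 times the level of replicate 2. These values rest on 20 to 40 reads a library. Oasl, a relative of the OAS enzymes, was just above the threshold at 1.02, 1.22, 1.57, 1.28 and 1.05 TPM, and its ratio to Oas1a changed sign between libraries.

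The ISG15 system attaches and removes a ubiquitin-like protein. Isg15, the modifier, had 9.53, 7.79, 8.61, 6.37 and 5.87 TPM, on 32 to 59 reads a library. Usp18, the protease that removes it and that also dampens the interferon receptor, had 2.48, 2.45, 5.38, 4.02 and 2.68 TPM. Isg15 was highest in replicate 1 and Usp18 in replicate 3. Isg15 did not vary beyond counting error (edgeR Poisson goodness of fit, adjusted p = 0.246), so its order of libraries cannot be told from counting error. The log2 ratio of Isg15 to Usp18 had the widest SD among the 19 pairs compared, 1.19 ± 0.56. Usp18 also had the highest coefficient of variation among the 33 detected genes, 37.7%.

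The antiviral effectors were led by Gbp2, a guanylate-binding protein, at 66.6, 68.6, 68.2, 65.1 and 65.0 TPM. Its libraries lay within 1.06-fold of each other. Mx2, a dynamin-like GTPase, had 32.9, 34.2, 40.0, 34.8 and 33.9 TPM, with replicate 3 apart from the rest. Bst2 (tetherin), which holds budding virus at the cell surface, had 29.5, 24.7, 32.8, 29.2 and 31.6 TPM. It was highest in replicate 3 and lowest in replicate 2. Ifi35, Gbp5, Ifi44 and Parp14 followed at 21.2 ± 2.50, 20.4 ± 1.68, 12.1 ± 0.74 and 10.1 ± 0.10 TPM. The named transcripts of Ifi44 summed to 8.23 TPM, so its level is uncertain. Parp14, a mono-ADP-ribosyltransferase, had the lowest coefficient of variation of the detected genes of the set, 1.00%. Counting error alone would give about 3.11% for this gene.

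Ifit2, which belongs to a family that binds viral RNA, averaged 9.71 ± 0.45 TPM, Xaf1 7.77 ± 0.39 TPM and Cmpk2, a mitochondrial nucleotide kinase, 4.50 ± 0.19 TPM. Xaf1 had no named transcript, so its deposited level could not be checked. Family members differed widely in level. Mx1 had 1.27, 1.14, 2.32, 0.98 and 1.28 TPM, 24.5-fold below Mx2 on average. Ifit3 had 0.26, 0.20, 0.66, 0.39 and 0.42 TPM on 5 to 17 reads a library, 21.3-fold below Ifit2. Both Mx1 and Ifit3 were lower than their relative in 5 of 5 libraries and highest in replicate 3. The named transcripts of Mx1 summed to 0.861 TPM, against a deposited mean of 1.40 TPM, so its level is uncertain. Rsad2 (viperin), a radical SAM enzyme whose gene neighbours Cmpk2 on the opposite strand, had 0.89, 1.16, 0.74, 0.71 and 1.02 TPM. It lay 4.64-fold below the deposited level of Cmpk2, whose named transcripts summed to 3.33 TPM. Replicate 3 was not the highest library of Rsad2.

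The immunoproteasome forms when Psmb8, Psmb9 and Psmb10 replace the catalytic subunits Psmb5, Psmb6 and Psmb7 of the constitutive proteasome. Psmb10 had 39.4, 36.5, 46.0, 43.3 and 38.2 TPM. Psmb8 had 34.1, 27.8, 30.2, 28.7 and 30.3 TPM. Psmb9 had 28.2, 25.9, 29.3, 33.8 and 26.0 TPM. Each of the 3 was highest in a different library, replicates 3, 1 and 4 in that order. Psmb8 did not vary beyond counting error (edgeR Poisson goodness of fit, adjusted p = 0.0882). Its order of libraries thus cannot be told from counting error.

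The constitutive counterparts were several times higher, at 292 ± 12.8 TPM for Psmb5, 177 ± 4.97 TPM for Psmb6 and 348 ± 8.04 TPM for Psmb7. Psmb8 lay 9.65-fold below Psmb5, Psmb9 lay 6.19-fold below Psmb6 and Psmb10 lay 8.57-fold below Psmb7, each in 5 of 5 libraries. Immunoproteasome transcripts thus made up 9.39% ± 0.814, 13.9% ± 1.46 and 10.5% ± 1.08 of each pair's summed TPM. All 14 constitutive core genes were detected, led by Psmb4, Psma7 and Psmb7 at 432, 366 and 348 TPM. The assembly factor Pomp was at 565 TPM, the interferon-inducible activator Psme1 at 152 TPM and the nuclear activator Psme3 at 64.9 TPM. Psme1 exceeded Psme3 2.34-fold, in 5 of 5 libraries. Psme2, the partner of Psme1 in the same ring, was at 16.8 TPM.

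In peptide transport and class I, B2m, the invariant light chain of MHC class I, had 812, 756, 789, 760.3 and 769 TPM. That mean lies at percentile 98.7 of the detected genes. Tap2 had 40.1, 34.8, 35.9, 34.5 and 36.6 TPM and its partner Tap1 had 24.5, 24.0, 25.5, 23.6 and 21.7 TPM. Tap1 and Tap2 together form the channel that moves peptides into the endoplasmic reticulum, and Tap1 was lower in every library, at 0.66 times Tap2. Tapbp (tapasin), which bridges the transporter and class I, had 30.7, 30.8, 28.7, 30.6 and 31.0 TPM. Replicate 3 was its lowest library. Tapbp and its relative Tapbpl did not differ beyond their spread, with a log2 ratio of -0.06 ± 0.13 and Tapbp higher in 2 of 5 libraries.

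Of the 11 class I heavy chain genes found, 10 were detected, led by RT1-A2, RT1-CE5 and RT1-A1 at 247, 126 and 121 TPM. These genes are near copies of each other, so the split of reads between them is uncertain. Their summed level was 581 ± 15.8 TPM. All 6 class I loading partners were detected, led by the chaperones Calr, Pdia3 and Canx at 2222, 1053 and 566 TPM, which also serve other glycoproteins.

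The transactivators that switch on MHC genes were the lowest role group. Nlrc5, which drives class I genes, had 0.54, 0.44, 0.44, 0.45 and 0.52 TPM on 47 to 66 reads a library. Ciita, which drives class II genes, had 0.07, 0.00, 0.03, 0.02 and 0.03 TPM, from 11 reads in all (exact Poisson 95% limits 0.02 and 0.05 TPM). Nlrc5 was above Ciita in each library, but the size of the ratio depends on the pseudocount, with a log2 ratio of 2.16 at 0.1, 3.86 at 0.01 and 0.52 at 1. Of 11 genes of class II and its processing 8 were detected, led by the lysosomal genes Ifi30, Ctss and RT1-DMb at 155, 126 and 43.7 TPM. The class II chaperone Cd74 was at 5.74 ± 1.24 TPM, while RT1-DOa had 0 reads, where 3 reads over the libraries would have given 0.05 TPM.

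Upstream of these genes, 0 of 9 interferon ligand genes were detected and 6 were listed at 0. No read fell on Ifnb1 or Ifng, and 3 reads over the libraries would have given 0.13 and 0.15 TPM. In contrast all 6 receptor genes were detected, with Ifngr1, Ifnar1 and Ifngr2 at 85.4, 57.7 and 54.7 TPM. Of 8 Janus kinases and STATs 7 were detected, led by Stat3, Jak1 and Jak2 at 177, 93.4 and 79.3 TPM, while Stat4 was at 0.41 TPM. All 6 negative regulators were detected, led by Socs3 at 116 TPM. Of 11 other genes of nucleic acid sensing 8 were detected, led by Adar, Tbk1 and the adaptor Mavs at 27.8, 25.6 and 16.1 TPM.

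Among 40 other interferon-stimulated genes, 30 were detected. Ifi27, Ifitm3 and Ifitm2 were the highest, at 387, 287 and 210.5 TPM, so genes of this kind spanned a wide range, as the antiviral effectors did. Cxcl9 and Oas1k were listed at 0. Of the 32 with a promoter window 19 held the ISRE core, against 2 of 13 windows of the constitutive proteasome core and 0 of 6 of the receptors.

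Whether a gene varied between libraries beyond counting error was tested with edgeR's goodness of fit of a Poisson model, adjusted by Benjamini-Hochberg over all 8871 genes tested. Of the 29 genes of the set that could be tested, 11 varied beyond counting error at an adjusted p under 0.05, or 37.9%. Over all genes tested the share was 31.6%, so the share in the set lay near the background. The 11 were B2m, Dhx58, Eif2ak2, Gbp5, Ifi35, Irf7, Mx2, Psmb9, Psmb10, Tap2 and Usp18. The smallest adjusted p among the low genes was 8.57e-05 for Usp18, followed by 0.000116 for Irf7, both from edgeR. Without replicate 3 the count was 5 of 29, namely B2m, Gbp5, Irf7, Psmb9 and Tap2, against 28.5% of all genes in that fit. Not tested were Irf3, Irf8, Irf9, Mx1, Cmpk2 and Ifi44, whose named transcripts do not account for their level, and Xaf1, which had no named transcript. Irf4, Ifit3 and Ciita were also not tested, because they had too few reads.

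A stricter test asked whether a gene varied more than genes of like abundance, with a negative binomial model whose dispersion follows the trend over all genes. By this edgeR test 0 of 29 passed, against 2.36% of all genes tested, and 2 had an unadjusted p under 0.05. These were Usp18, with an adjusted p of 0.102 in edgeR, and Irf7, with an adjusted p of 0.241 in edgeR. With 1 common dispersion for all genes both passed, at adjusted p of 0.00342 and 0.0131 in edgeR, against 3.51% of all genes tested. The biological coefficient of variation is edgeR's estimate of the spread beyond counting error, drawn for each gene toward the trend for its abundance. Its median was 5.94% in the set and 4.98% over all genes tested, which were not matched for abundance. It was 20.3% for Usp18 and 14.8% for Irf7. Of the 14 macrophage markers 10 passed the stricter test, with a median of 11.7%, while of 13 constitutive proteasome genes none did.

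**Figure D3:**
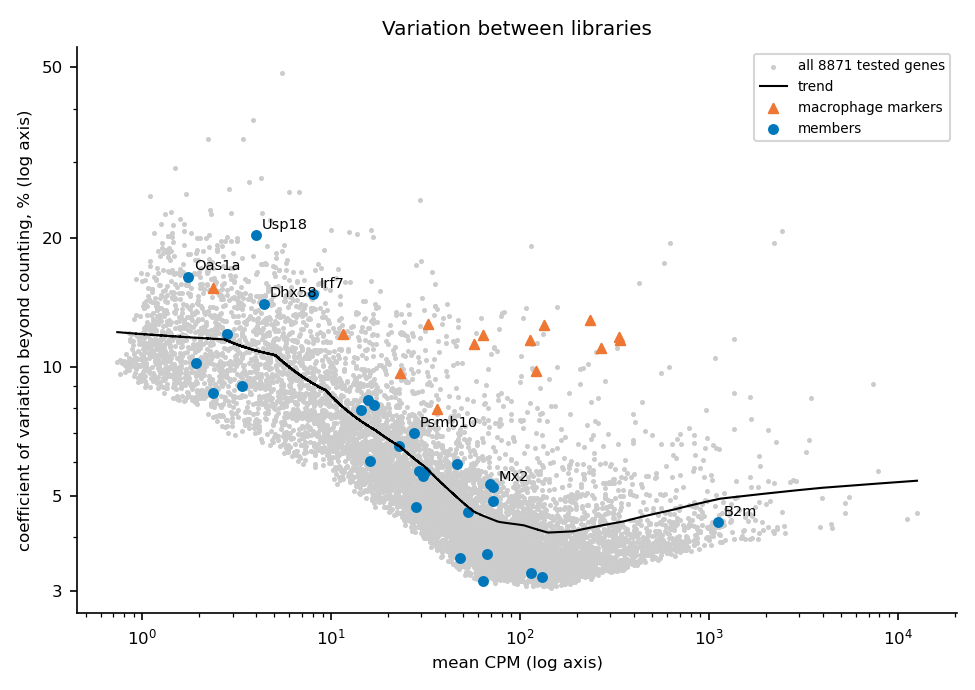
The vertical axis (percent, log) is edgeR's estimate of the coefficient of variation beyond counting error, drawn for each gene toward the trend. The horizontal axis (log) is abundance in CPM, reads scaled to library size. Grey points are 8871 tested genes, blue points 29 interferon and antigen-processing genes and orange points 14 macrophage markers. The black line is the trend for genes of like abundance. Usp18 at 20.3% and Irf7 at 14.8% lie above the trend, B2m at 4.33% lies below it, and the macrophage markers lie high at their abundance.

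Replicate 3 was the highest library for 14 of the 33 detected genes, against 21.2% of all detected genes; this description was chosen after the values were seen. It was the highest for 5 of 6 sensors, 5 of 10 detected effectors and Usp18. In these role groups together it was the highest for 11 of 18, and their median deviation there was 0.16 (log2 TPM minus the mean of the gene over libraries). For the 7 detected genes of antigen processing it was the highest in 2 (Psmb10 and Tap1), with a median deviation of 0.02. Among the regulatory factors it was the highest for Irf7 alone. Of these 14 genes, 7 varied beyond counting error by the Poisson test. Over all genes tested the share was 31.6%. The 14 were picked by their highest library in the same values, so no comparison with that share is drawn. The 7 were Dhx58, Eif2ak2, Ifi35, Irf7, Mx2, Psmb10 and Usp18. Oas1a, Oasl, Trim25, Bst2, Ifit2 and Tap1 did not, and Xaf1 was not tested. Replicate 1 was the highest library for 11 of 33, against 22.3% of all detected genes, among them Irf1, Irf2, Irf9, Stat2 and B2m.

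Over all 33 detected genes the median deviations were 0.02, -0.02, 0.06, -0.04 and -0.01 in replicates 1 to 5. Over all detected genes of the table they were within 0.02 of 0. Genes of the set lay above their own mean in replicate 3 in 26 of 33 cases, against 56.2% of all detected genes. The macrophage markers had medians of -0.04, -0.41, 0.14, 0.08 and 0.23, lowest in replicate 2 and highest in replicate 5. In replicate 3 all 14 macrophage markers lay above their own mean, and 11 of 14 macrophage markers were highest in replicate 5. Their part in the deviations of replicate 3 was not tested. Among detected genes of the set with a promoter window, those with an ISRE core were highest in replicate 3 in 7 of 16 cases and those without in 3 of 11. Over all detected genes with a window the counts were 83 of 300 with the core and 2148 of 10208 without.

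**Figure D4:**
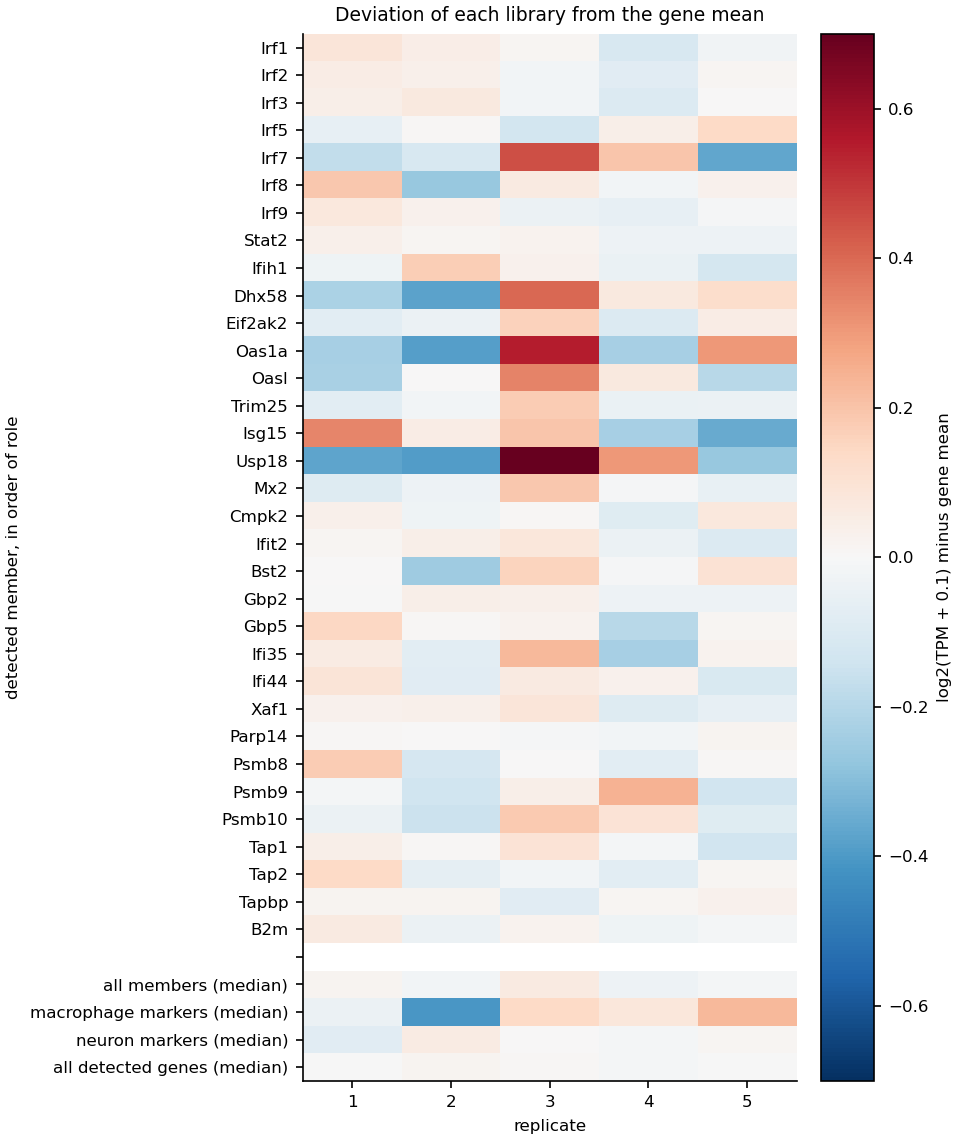
Deviation of each library (columns) from the mean of the gene on the log2(TPM + 0.1) scale, for the 33 detected genes in order of role and for 4 medians below them. Red is above and blue below the mean. Usp18, Oas1a, Irf7 and Dhx58 are darkest red in replicate 3, whereas the macrophage median is lowest in replicate 2, at -0.41.

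Of the 19 gene pairs compared within libraries, 17 had the same sign in all 5. The exact two-sided sign-flip permutation test over 5 libraries cannot go below p = 0.0625, which these 17 reached, with a Benjamini-Hochberg adjusted value of 0.0699 over the 19 pairs, so no pair could pass 0.05. The pairs that changed sign were Tapbp with Tapbpl (exact permutation p = 0.375) and Oas1a with Oasl (exact permutation p = 0.188). The narrowest one was Irf1 with Irf2, with an SD of 0.04. Irf9 and Stat2, which act in 1 complex, were close in level, with a log2 ratio of -0.06 ± 0.04, or -0.71 when only named transcripts were summed. Gbp2 exceeded Gbp5 3.27-fold, with folds from 2.96 to 3.65.

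**Figure D5:**
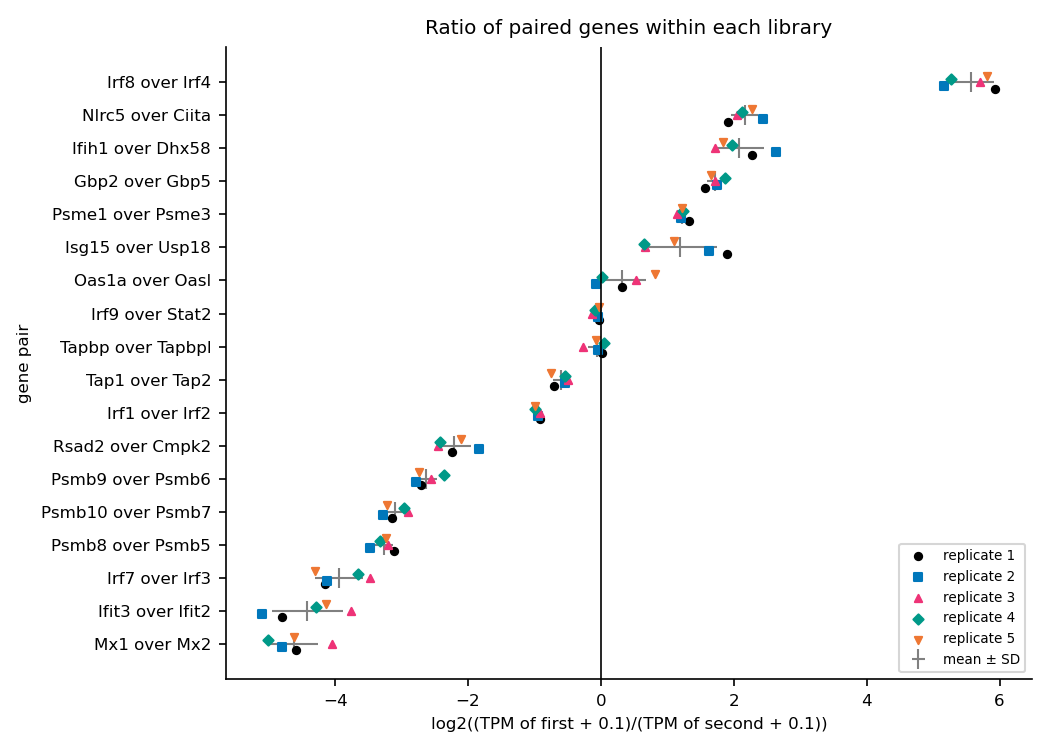
Log2 ratio of the TPM of paired genes, each plus 0.1, in each of 5 libraries (symbols), for 18 of the 19 pairs, with the mean ± SD as grey crosses. Ratios right of 0 have the first gene higher. The immunoproteasome subunits lie left of 0 against their constitutive counterparts, at -3.27, -2.63 and -3.10, and Tapbp over Tapbpl straddles 0.

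The transcripts that carried these levels differed in how well they are annotated. For 18 of the 38 genes with a named transcript, all named transcripts were curated RefSeq records. All of the Irf7 signal fell on predicted models, while its curated transcript was listed at 0, and all transcripts of Nlrc5 were predicted. For Dhx58, 87.1% ± 17.8 of the TPM was on predicted models. For Oas1a the share was 80.0% ± 44.7, with a single one of its 2 transcripts holding all of the TPM in each library. For Irf2 the share was 72.6% ± 2.58. B2m, Tap1, Tap2, Psmb8, Psmb10, Gbp2, Gbp5 and Bst2 each had a single curated transcript.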

How the data were processed

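RNA-seq libraries were made with poly-A selection from 5 samples of 1 group. Reads were handled with Salmon 1.5.1, cutadapt 2.8 and Trim Galore 0.6.6, and the rat build was mRatBN7.2, per the submitters' processing notes. Neither the strand setting nor the map from transcripts to genes is stated in those notes or in the labels. The authors deposited a combined table of gene-level TPM for 33014 genes, and, in the quantification files, TPM and an estimated read count for 98811 transcripts. The deposited estimated counts were summed per gene and rounded before count models. Transcripts were named through a RefSeq table of GRCr8, which matched 67330 of them (68.1%). A gene entered the count models when the sum of its named transcripts was within 10% of its deposited TPM in all libraries, which held for 13805 genes and 32 of the 39 genes described; these carried 67.1% to 67.4% of the estimated reads.

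Detection was 1 TPM in every library, and log scales used a pseudocount of 0.1 TPM. At 1 TPM a transcript of 1 kb had 13.3 to 17.4 reads. The intervals are exact Poisson limits at 95% and floors are 3 reads; both cover counting error only. The tests were edgeR 4.0.16 goodness of fit (TMM, filterByExpr, R 4.3.3), tested on simulated data, and exact sign-flip tests. Library pairs were checked over 9264 genes, and differed by a mean chi-square of 2.69 to 9.05 per gene, where counting noise gives about 1, so none was treated as a repeat of another. Values in every library are given for the 3 highest detected genes of each role, for genes past the stricter variation test and for genes of the pairs discussed; other genes are given by mean or range. From each pathway list the 3 highest genes and up to 2 undetected ones are named. Psme2, Cd74 and further genes named outside this rule, were chosen after their values were seen. Of 135 pathway genes listed, 127 were in the table. The genes and lists were chosen with earlier results of these data known. Alternatives covered thresholds, pseudocounts, normalization, filters, transcript sums, dispersion and leaving out each library. A planned comparison of protein sequences was not run, and 1 pair and 1 gene that the lists hold are not reported here.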

Additional observations from a re-analysis of the deposited data

Results flagged for a closer look

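In 4 of 59 series of values over the 5 libraries (the levels of the 39 genes, the 19 pair ratios and the summed level without B2m), 1 library stood apart from the other 4 by Dixon's criterion at 95%, which chance meets in about 1 series in 20. All 4 concern replicate 3. Mx2, a dynamin-like antiviral GTPase, was highest there at 40.0 TPM, with the next library at 34.8 TPM. Trim25, a ubiquitin ligase of RNA sensing, was at 16.5 TPM there and at 14.4 TPM in the next library. Mx1 was at 2.32 TPM in replicate 3 and at 1.28 TPM in the next. Tapbp (tapasin) was lowest in replicate 3, at 28.7 TPM against 30.6 TPM in the next library, so the direction was not shared by all 4. By edgeR's Poisson goodness of fit, Mx2 varied beyond counting error (adjusted p = 0.000869). By the same edgeR test Trim25 (adjusted p = 0.135) and Tapbp (adjusted p = 0.825) did not, and Mx1 was not tested. The median deviation of the macrophage markers in replicate 3 was 0.14 on the log2 scale, against 0.23 in replicate 5, and its part in these values was not tested.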

How the results depend on the processing

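No paired analysis was possible because the 5 libraries form 1 group. Of the main results, 48 values under alternative settings stayed near the reported value, and 4 did not. For counts, near meant within a fixed fold of the reported count, so 8 genes without replicate 2 against 11 was also near. For median levels and deviations it meant within the spread of the libraries. The median level of the 39 genes was 10.1 TPM instead of 12.5 when named transcripts alone were summed. The number of genes that varied beyond counting error ranged from 5 to 11 when 1 library was left out, with 5 without replicate 3 and 11 with all libraries. The share over all genes moved as well, with 19.5%, 24.6%, 28.5%, 27.9% and 29.5% without replicates 1 to 5, against 31.6% with all. When all genes with a named transcript entered that fit, 14 of 35 genes of the set passed, against 43.7% of all genes. With named transcripts within 5% of the deposited TPM it was 10 of 27, against 31.3% of all genes. The number that varied beyond genes of like abundance was 1 of 35 (Mx1) when all genes with a named transcript entered the fit, where 4.22% of all genes passed, and 2 of 29 (Irf7 and Usp18) with a common dispersion, where 3.51% passed. It was 0 of 29 as reported, where 2.36% passed, and 0 in the other fits run; the cause was not tested. Detection counts ran from 30 at a threshold of 2 TPM to 35 at 0.5 TPM, and the pairs with 1 sign from 17 to 18. For single genes and ratios, 896 values kept their side of the threshold or lay within the spread of the libraries. A further 19 moved, 3 newly passed and 14 no longer passed, and none changed sign in a call. Levels under 1 TPM rest on few reads, and exact tests over 5 libraries cannot reach 0.05.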
